A study of Mus musculus with 15 samples.

Results

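The prostaglandin and leukotriene pathway was followed through 10 genes, Ptgs1, Ptgs2, Ptges, Hpgds, Tbxas1, Alox5, Alox5ap, Lta4h, Ltc4s and Ptger4. They were chosen by name for their place in the pathway, with earlier results of these data known. Each symbol matched 1 of the 38924 genes listed. RNA-seq was done on CD11b+ cells sorted by flow cytometry from the brains of male wild type C57BL/6J mice aged 12 months. The mice ate a control chow diet (CD) or, from 2 months of age, a western diet (WD), and cells with high surface CD45 (CD45hi) were collected apart from cells with low CD45 (CD45lo). There were 4 libraries each of CD CD45hi, CD CD45lo and WD CD45lo and 3 of WD CD45hi, 15 in all. Neither allele nor transgene set the groups apart. CD11b is carried by microglia and by other myeloid cells, and among CD11b+ brain cells low CD45 is the usual mark of microglia, so the CD45hi gate could hold several cell types. The study describes its read counts as given for each animal, and which CD45hi and CD45lo libraries came from the same mouse was not given in the sources used here.

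Prostaglandins and leukotrienes are short-lived lipid signals made from arachidonic acid that phospholipases cut out of membranes. The cyclooxygenases (Ptgs1 for COX-1, Ptgs2 for COX-2) turn arachidonic acid into prostaglandin H2, from which terminal synthases make the separate prostanoids: Ptges prostaglandin E2, Hpgds prostaglandin D2 and Tbxas1 thromboxane A2. In the other branch, 5-lipoxygenase (Alox5) works with its activating protein FLAP (Alox5ap) to make leukotriene A4. Lta4h converts this to leukotriene B4, a neutrophil attractant, and Ltc4s to leukotriene C4, the parent of the cysteinyl leukotrienes. Ptger4 encodes EP4, a receptor for prostaglandin E2. Ptgs1 is known as a gene that resting microglia express, and Ptgs2 as a gene that myeloid cells induce with inflammatory stimuli.

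The 4 members whose CD45hi and CD45lo libraries did not overlap in the same direction on both diets are shown first by their start-site windows, 250 bases before to 50 bases after the start in RefSeq (GRCm38.p6, the mm10 assembly), 5′ to 3′ on the gene's strand. This rule only picked the windows to print, and the share of all genes that met it on both diets was not counted. Of the 10 members 9 had a window, all but Alox5ap. Capitals mark matches, on either strand, to 6 short motifs that were searched by letters. The windows were chr2:36230176-36230475 (plus strand) for Ptgs1, chr1:150099781-150100080 (plus) for Ptgs2, chr6:65144681-65144980 (minus) for Hpgds and chr15:5244138-5244437 (minus) for Ptger4.
Ptgs1: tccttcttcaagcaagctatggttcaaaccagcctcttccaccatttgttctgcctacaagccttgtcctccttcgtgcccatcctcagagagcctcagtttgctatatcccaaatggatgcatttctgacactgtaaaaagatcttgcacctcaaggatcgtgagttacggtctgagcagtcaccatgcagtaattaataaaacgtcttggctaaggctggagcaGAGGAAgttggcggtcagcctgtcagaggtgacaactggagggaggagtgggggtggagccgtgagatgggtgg
Ptgs2: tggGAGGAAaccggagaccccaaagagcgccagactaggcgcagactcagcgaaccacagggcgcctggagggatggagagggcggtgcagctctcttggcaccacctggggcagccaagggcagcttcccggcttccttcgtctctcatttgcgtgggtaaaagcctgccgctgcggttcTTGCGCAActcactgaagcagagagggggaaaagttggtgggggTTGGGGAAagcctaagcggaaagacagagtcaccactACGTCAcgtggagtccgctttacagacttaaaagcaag
Hpgds: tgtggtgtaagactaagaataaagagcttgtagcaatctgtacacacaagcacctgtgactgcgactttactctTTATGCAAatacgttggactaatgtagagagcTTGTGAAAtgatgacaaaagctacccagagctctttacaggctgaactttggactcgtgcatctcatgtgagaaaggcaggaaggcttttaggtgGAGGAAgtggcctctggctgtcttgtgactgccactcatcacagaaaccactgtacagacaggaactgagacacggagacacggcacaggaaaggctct
Ptger4: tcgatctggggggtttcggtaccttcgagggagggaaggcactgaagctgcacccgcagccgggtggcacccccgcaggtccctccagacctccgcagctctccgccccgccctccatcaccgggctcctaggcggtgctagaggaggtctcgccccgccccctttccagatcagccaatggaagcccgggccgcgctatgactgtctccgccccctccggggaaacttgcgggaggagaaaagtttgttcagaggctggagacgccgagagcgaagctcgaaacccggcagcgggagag

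GAGGAA, a core that PU.1 and other ETS factors can bind, stood in 8 of the 9 windows, all but that of Ptger4, and in 28.3% of the 32851 windows of 27025 mouse genes. Its first base lay at -24 in Ptgs1, at -247 in Ptgs2 and at -49 in Hpgds, counted from the start at 1 with no position 0. TTNCNNAA, the C/EBP pattern, stood in the windows of Ptgs2, Hpgds and Ptges and in 40.7% of all windows, and the match at -69 in Ptgs2 read the same on both strands. TGACGT, the core of a cAMP response element, was found among the members only in Ptgs2, on the minus strand from position 13 (7.51% of all windows). TATAAA (13.6% of all windows) and the AP-1 pattern TGANTCA (7.81%) matched only Tbxas1. The NF-kappaB pattern (GGGA, any base, then TTTCC), which 0.411% of all windows held, matched no member. None of the 6 motifs was in the Ptger4 window, which is why its letters are all lower case. No factor's binding was measured here.

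Assigned read pairs per library ranged from 11951412 to 17752587 in the 7 CD45hi libraries and from 12177630 to 17912272 in the 8 CD45lo libraries. Levels below are cpm, counts scaled to the TMM-normalized library size, and 3 counts, taken as the floor of detection, were worth 0.156 to 0.282 cpm. A pair of CD45hi libraries stood apart on the second principal component, CD CD45hi 4 at 93.0 and WD CD45hi 1 at -134.7, while the other CD45hi libraries lay between 6.1 and 21.5. The summed level of 7 microglial markers was 3419 to 4442 cpm in CD45hi and 8392 to 10550 cpm in CD45lo libraries, and 7 of 7 (CD) and 5 of 7 (WD) were called lower in CD45hi. The 5 monocyte markers summed to 376 to 1011 against 56.7 to 154 cpm (3 called higher in CD45hi on CD, 2 on WD), the 8 neutrophil markers to 1365 to 3443 against 569 to 851 cpm (6 on each diet), and the 5 border macrophage markers to 653 to 2378 against 54.2 to 205 cpm (5 on each diet). Among the neutrophil markers, Csf3r was high in both gates. Its mean was 730 cpm in CD45hi and 551 cpm in CD45lo on CD, and 649 and 684 cpm on WD. Ly6g was low in every group, with means from 0.589 to 2.86 cpm. Mast cell and basophil markers summed to at most 7.32 cpm, with Mcpt4 at 0 in every library, and platelet markers to at most 10.4 cpm. Only 2 of the 6 mast cell and basophil markers and 2 of the 5 platelet markers were high enough to be tested. None of those tested was called. The part of the markers that were called between the gates in the results below was not tested. In bulk libraries fewer cells of a type and less RNA per cell cannot be told apart.

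The first comparison asked how the pathway differed between CD45hi and CD45lo cells of mice on the same diet. In WD-fed mice Ptgs1 fell and Ptgs2 and Ptger4 rose in CD45hi cells. In CD-fed mice Ptgs2 and Ptger4 rose. A gene was called when a change beyond 1.5-fold had a false discovery rate (FDR) under 0.05 over the 14967 genes tested (edgeR glmTreat). Of the 9 members tested, 3 were called in WD, where 5.18% of all genes tested were (4.01% higher, 1.17% lower), and 2 in CD, where 3.98% were (3.39% higher, 0.588% lower). The members were chosen with earlier results of these data known, so these shares do not test the pathway as a whole. Each of the 9 reached 1 cpm in all 7 CD45hi libraries and in at least 5 of the 8 CD45lo libraries, so none was tested only through 1 gate. For any change (edgeR glmQLFTest FDR under 0.05) the members were 4 in WD, where 9.12% of all genes passed, and 5 in CD, where 8.03% did. The libraries of the gates did not overlap for 5 of the 9 members in WD, 2 higher and 3 lower in CD45hi, and for 23.4% of all genes tested (10% higher, 13.4% lower). In CD they did not overlap for 5 of the 9, 3 higher and 2 lower, and for 16.5% of all genes (8.26% higher, 8.22% lower). The median log2 fold change of the 9 was 0.28 in WD, where all genes had 0.00, and 0.50 in CD, where all genes had 0.04.

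**Figure D1:**
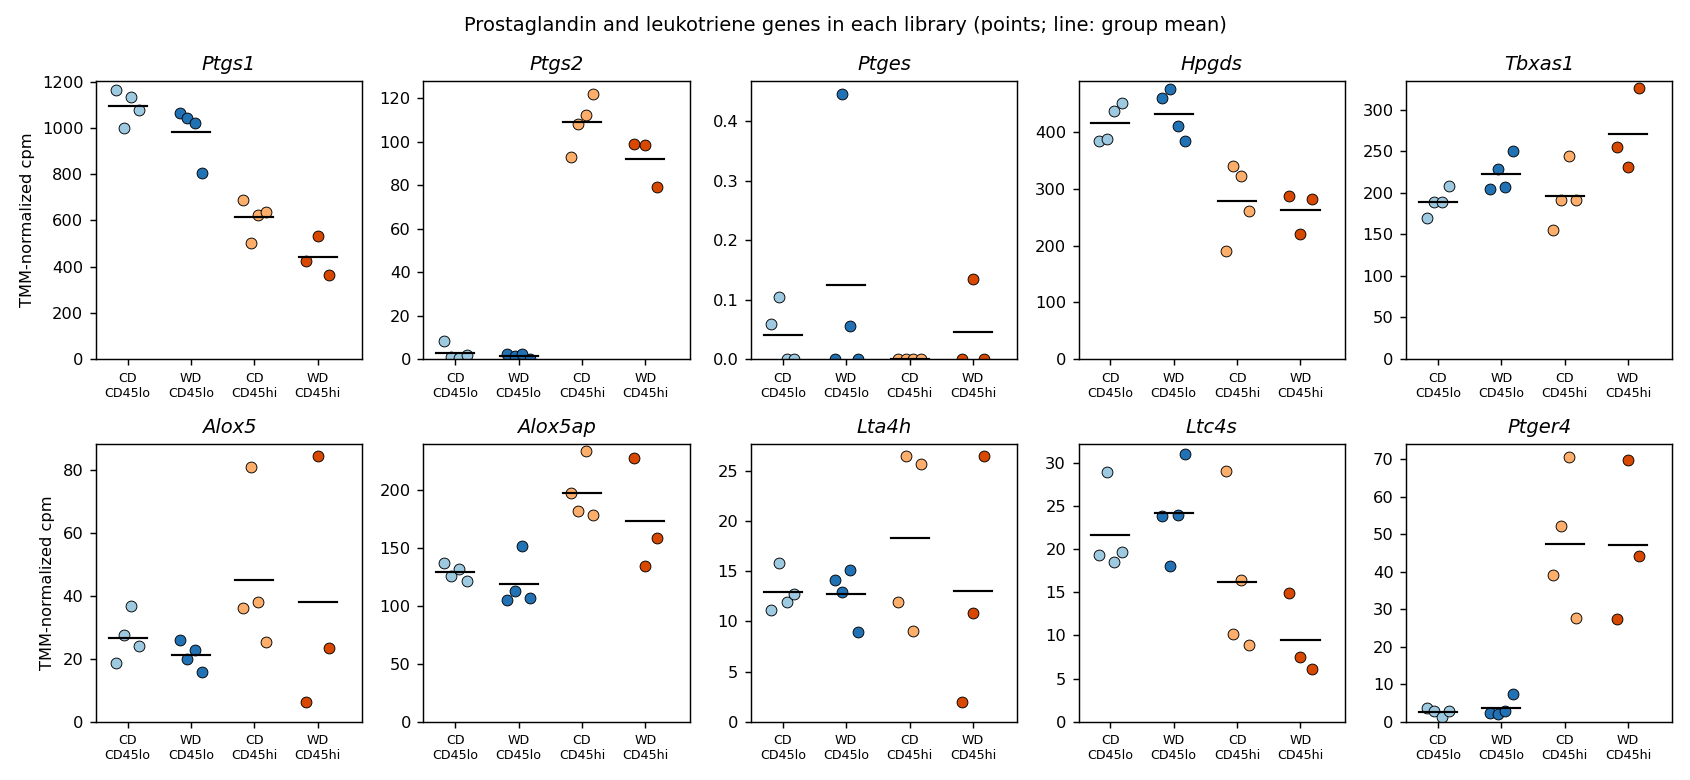
TMM-normalized cpm of each of the 10 members in each of the 15 libraries, 1 panel a gene with its own axis. Points are libraries and lines are group means. Ptgs2 and Ptger4 points lie high in both CD45hi groups and near 0 in both CD45lo groups, while Ptgs1 and Hpgds points lie lower in CD45hi.

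Ptgs1 (ENSMUSG00000047250, chromosome 2, 36230426 to 36252272, mm10) had the highest TPM, a length-scaled level, of the 10 in CD45lo cells. Its CD45lo libraries measured 1163, 999, 1134 and 1078 cpm on CD and 1063, 1041, 1021 and 807 cpm on WD. Its CD45hi libraries measured 690.1, 501, 623 and 636 cpm on CD and 423, 533 and 365 cpm on WD. Every CD45hi library lay below every CD45lo library, whichever the diet. In WD the level fell 2.23-fold in CD45hi cells, from 983 ± 118.8 (SD, n = 4) to 441 ± 85.4 cpm (n = 3), or -1.16 on the log2 scale with an SE of 0.154 (edgeR glmTreat FDR = 0.00623). In CD it was 613 ± 79.8 against 1093 ± 72.2 cpm (n = 4 each), 1.78-fold lower, which passed a test for any change (log2 fold change -0.84, SE 0.139; edgeR glmQLFTest FDR = 0.000752) but not the test beyond 1.5-fold (glmTreat FDR = 0.157). Without the pair of libraries that stood apart, the WD value was -1.13 (glmTreat FDR = 0.0199). The microglial markers were lower in the same CD45hi libraries, and their part in the Ptgs1 result was not tested. A gene model on the other strand, Gm43621, overlaps Ptgs1, and whether counting used strand was not stated.

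Ptgs2 (ENSMUSG00000032487, chromosome 1, 150100031 to 150108227) was abundant in every CD45hi library and scarce in every CD45lo library. It measured 93.0, 108.2, 112.3 and 121.8 cpm in CD CD45hi and 98.8, 98.6 and 79.4 cpm in WD CD45hi. In CD45lo it measured 8.30, 0.830, 0.246 and 1.93 cpm on CD and 2.16, 1.48, 2.14 and 0 cpm on WD. The CD45hi values stand on 1035 to 1892 reads a library, and the CD45lo values on 141, 16, 4 and 34 reads on CD and 33, 20, 39 and 0 on WD. The 7 CD45hi libraries stayed within a narrow band, and CD45lo replicate 1 on CD was the highest of the CD45lo libraries. The rise was 62.6-fold in WD (log2 fold change 5.97, SE 0.930; edgeR glmTreat FDR = 0.000742) and 38.5-fold in CD (5.27, SE 0.875; FDR = 0.00136). Leaving out CD CD45lo replicate 1 moved the CD value to 6.75, and leaving out the pair of libraries that stood apart gave 5.91 (FDR = 0.00224) in WD and 5.21 (FDR = 0.00409) in CD. The summed levels of monocyte, neutrophil and border macrophage markers were higher in the same CD45hi libraries. The part of these markers in the Ptgs2 result was not tested.

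The share of Ptgs2 in the summed TPM of both cyclooxygenases within a library was 9.17% ± 2.91 (SD, n = 4) in CD CD45hi and 10.3% ± 1.68 (n = 3) in WD CD45hi. In CD45lo it was 0.147% ± 0.188 on CD and 0.0811% ± 0.0570 on WD (n = 4 each). The lowest CD45hi library stood at 4.91%. Ptgs1 therefore had the larger share of the pair in every group, CD45hi included.

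**Figure D2:**
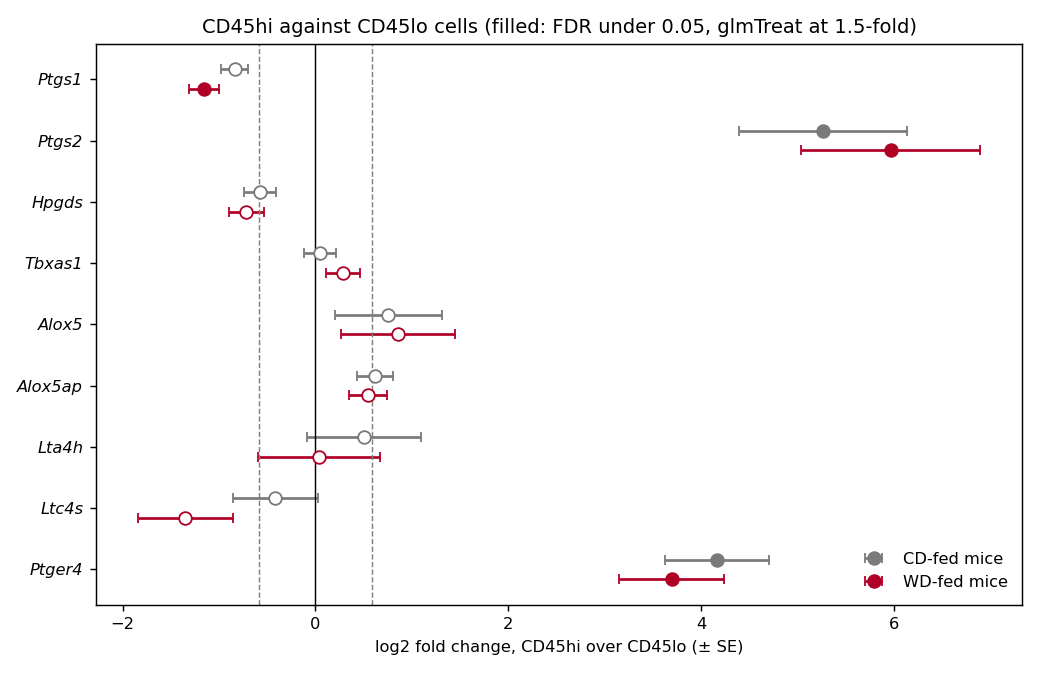
Log2 fold change of CD45hi over CD45lo with its SE for the 9 members tested, CD and WD side by side; filled points were called by edgeR glmTreat, and dashed lines mark 1.5-fold. Ptgs2 and Ptger4 stand far right on both diets, Ptgs1 is called on the left in WD only, and the remaining members are open points.

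Ptger4 (ENSMUSG00000039942, chromosome 15, 5206661 to 5244187), the prostaglandin E2 receptor, was the other member that rose on both diets. In CD45hi it measured 39.1, 52.2, 70.7 and 27.8 cpm on CD and 27.5, 69.8 and 44.3 cpm on WD. In CD45lo it measured 3.71, 2.80, 1.23 and 2.78 cpm on CD and 2.43, 2.15, 2.75 and 7.27 cpm on WD. The groups were well apart, although the CD45hi libraries spread more for Ptger4 than for Ptgs2. The mean was 47.4 ± 18.4 against 2.63 ± 1.03 cpm in CD (n = 4 each) and 47.2 ± 21.3 (n = 3) against 3.65 ± 2.43 cpm (n = 4) in WD. These were rises of 18.0-fold in CD (log2 fold change 4.17, SE 0.541; edgeR glmTreat FDR = 0.000164) and 12.9-fold in WD (3.69, SE 0.545; FDR = 0.000599). Ttc33 and Gm15937 overlap Ptger4 on the other strand, and its counts were fractional in 10 libraries. Without the pair of libraries that stood apart the values were 4.35 in CD and 3.97 in WD. The summed levels of monocyte, neutrophil and border macrophage markers were higher in these CD45hi libraries too, and the part of these markers was not tested.

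Of the terminal prostanoid synthases, Hpgds and Tbxas1 did not pass the test beyond 1.5-fold, and Ptges was not tested. Ptges (ENSMUSG00000050737, chromosome 2, 30889471 to 30929863), the inducible prostaglandin E synthase, was at or near the floor. It had 0 reads in 10 of the 15 libraries and at most 6 reads, in WD CD45lo replicate 2 (0.445 cpm), so it did not pass the filter on low counts and no fold was computed.

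Hpgds (ENSMUSG00000029919, chromosome 6, 65117293 to 65144908), the hematopoietic prostaglandin D synthase, measured 191, 341, 324 and 261 cpm in CD CD45hi and 289, 220.3 and 282 cpm in WD CD45hi. It measured 385, 389, 438 and 452 cpm in CD CD45lo and 461, 476, 411 and 385 cpm in WD CD45lo. Like Ptgs1, Hpgds had every CD45hi library below every CD45lo library. The mean was 279 ± 68.3 against 416 ± 34.1 cpm in CD and 264 ± 37.8 against 433 ± 42.7 cpm in WD. The log2 fold changes were -0.57 (SE 0.169) in CD and -0.72 (SE 0.185) in WD, past the test for any change (edgeR glmQLFTest FDR = 0.0452 and 0.0197) and not past that beyond 1.5-fold (glmTreat FDR = 0.794 and 0.391). Gm17147 overlaps Hpgds on the other strand, and expected counts of Hpgds were fractional in all 15 libraries.

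Tbxas1 (ENSMUSG00000029925, chromosome 6, 38875404 to 39084585), the thromboxane synthase, overlapped between the gates. Its libraries ran from 155 to 245 cpm in CD CD45hi, from 170.0 to 209 in CD CD45lo, from 231 to 326 in WD CD45hi and from 204 to 251 in WD CD45lo. The log2 fold change was 0.05 (SE 0.163) in CD and 0.28 (SE 0.175) in WD (edgeR glmTreat FDR = 1 and 0.977). Tbxas1 shares part of its span with Hipk2 on the other strand, and its counts were fractional in all 15 libraries as well. The ratio of Hpgds to Tbxas1 by TPM within a library was 3.15 ± 0.254 in CD CD45lo and 2.96 ± 0.220 in WD CD45lo (n = 4 each), and 1.95 ± 0.293 (n = 4) in CD CD45hi. In WD CD45hi it was 3.41, 1.03 and 1.01, the first in the library with the short effective length of Hpgds given below.

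None of the 4 leukotriene genes was called in either diet. By edgeR glmQLFTest for any change only Alox5ap in CD passed, at an unadjusted p under 0.05 there were 1 in CD (Alox5ap; 20.1% of all genes) and 2 in WD (Alox5ap and Ltc4s; 24.5%), and DESeq2 called the same ones and 12% of all genes in CD and 15.3% in WD. Alox5ap (ENSMUSG00000060063, chromosome 5, 149264767 to 149288153) measured 197, 182, 233 and 178 cpm in CD CD45hi and 137, 125.5, 132 and 121 cpm in CD CD45lo. In WD it measured 227, 135 and 158 cpm in CD45hi and 105.0, 113, 152 and 107 cpm in CD45lo. The CD libraries did not overlap, and the WD libraries did. The log2 fold change was 0.62 (SE 0.184; edgeR glmTreat FDR = 0.716, glmQLFTest FDR = 0.0482) in CD and 0.54 (SE 0.197; glmTreat FDR = 0.718, glmQLFTest FDR = 0.099) in WD.

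Alox5 (ENSMUSG00000025701, chromosome 6, 116410077 to 116461178) was lower than its partner Alox5ap by mean TPM in all 4 groups and varied widely between replicates of CD45hi cells. Its CD45hi libraries measured 36.2, 80.9, 37.9 and 25.4 cpm on CD and 6.40, 84.3 and 23.5 cpm on WD. Its CD45lo libraries lay between 18.6 and 36.6 cpm on CD and between 15.8 and 25.9 cpm on WD. The lowest and the highest library of the whole set were both in WD CD45hi. The log2 fold changes, 0.76 (SE 0.556) in CD and 0.85 (SE 0.593) in WD, were within that spread (edgeR glmTreat FDR = 0.788 and 0.616).

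Lta4h (ENSMUSG00000015889, chromosome 10, 93453411 to 93484875), which makes leukotriene B4, ran from 9.06 to 26.5 cpm in CD CD45hi and from 1.98 to 26.5 cpm in WD CD45hi. In CD45lo it stayed between 8.94 and 15.8 cpm. The log2 fold changes were 0.50 (SE 0.588) in CD and 0.04 (SE 0.634) in WD (edgeR glmTreat FDR = 0.952 and 1). Ltc4s (ENSMUSG00000020377, chromosome 11, 50236461 to 50238616), which makes leukotriene C4, measured 14.96, 7.45 and 6.13 cpm in WD CD45hi and 23.9, 18.0, 23.9 and 31.0 cpm in WD CD45lo. The WD gates did not overlap, yet the log2 fold change of -1.35 (SE 0.493) missed the threshold (edgeR glmTreat FDR = 0.217, glmQLFTest FDR = 0.0997). In CD the Ltc4s gates overlapped (8.95 to 29.1 against 18.5 to 29.0 cpm), with a log2 fold change of -0.42 (SE 0.439; glmTreat FDR = 0.954).

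The second comparison asked whether the diet moved these genes within 1 gate. No member was called in CD45hi cells, where 0.254% of all genes tested were called by edgeR glmQLFTest, nor in CD45lo cells, where 0% were. At an unadjusted p under 0.05 there were 2 members in CD45hi (17.6% of all genes) and 0 in CD45lo (0.822%). DESeq2 and limma-voom also called 0 members in each gate. Over all genes DESeq2 called 6.88% in CD45hi and 0.0267% in CD45lo, and limma-voom 0.18% and 0%. The WD and CD libraries overlapped for all 9 members in both gates (5.77% of genes did not overlap in CD45hi and 2.42% in CD45lo). The 2 were Ptgs1, at 365 to 533 cpm on WD and 501 to 690.1 cpm on CD (log2 fold change -0.48, SE 0.151; edgeR glmQLFTest FDR = 0.136), and Tbxas1, at 231 to 326 cpm on WD and 155 to 245 cpm on CD (0.47, SE 0.175; FDR = 0.182). Leaving out WD CD45hi replicate 2, the highest of its group for Ptgs1, gave Ptgs1 a log2 fold change of -0.64 (FDR = 0.0493). The remaining 7 members in CD45hi had log2 fold changes from -0.77 (Ltc4s) to -0.01 (Ptger4). In CD45lo the 9 ran from -0.94 for Ptgs2, with its few reads, to 0.47 for Ptger4, each at an edgeR glmQLFTest FDR of 1. The median over the 9 was -0.24 in CD45hi and -0.02 in CD45lo, where all genes had -0.02 and 0.00.

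**Figure D3:**
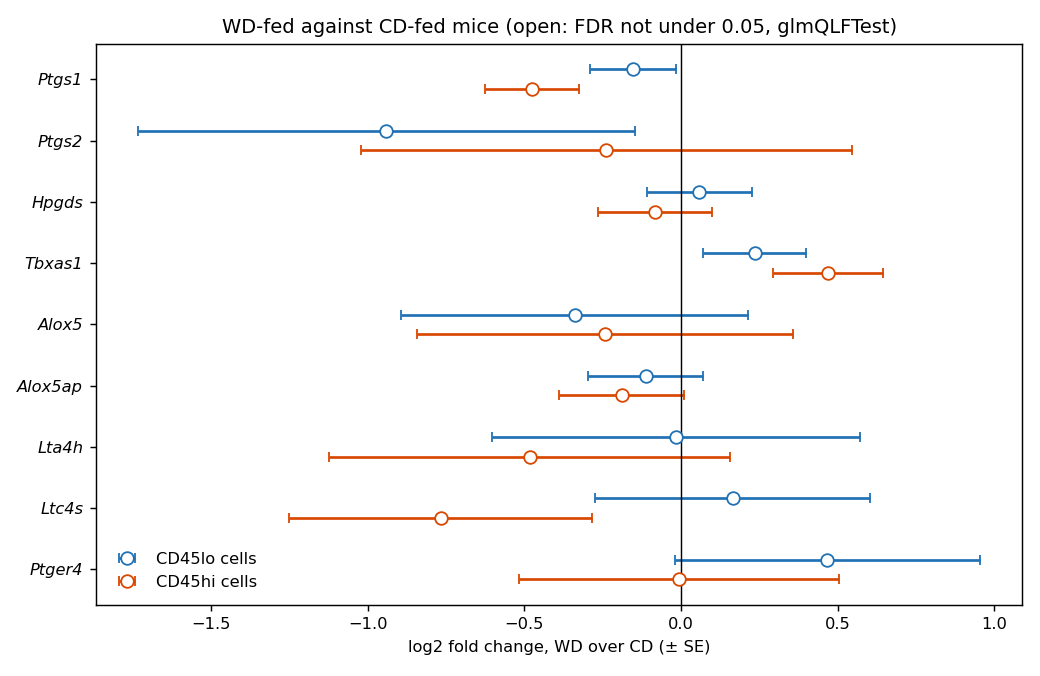
Log2 fold change of WD over CD with its SE for the 9 members tested, in CD45lo and in CD45hi cells. All points are open because no member was called in either gate, and the bars of most members cross 0.

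The difference between the gates was also compared between diets by an interaction term, which called no member (edgeR glmQLFTest, 0.00668% of all genes tested). At an unadjusted p under 0.05 there were 0 members (10.1% of all genes). DESeq2 (1.26% of all genes) and limma-voom (0%) also called 0 members. The interaction ran from -0.93 for Ltc4s to 0.70 for Ptgs2 on the log2 scale, and the lowest FDR was that of Ptgs1 (0.641). Ptgs1, called in WD and not in CD, was thus not shown to differ between the diets. Both gate comparisons and both diet comparisons draw on the same 15 libraries, so they were read side by side and not as separate evidence.

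Levels between members were compared per length by the deposited TPM. In CD CD45lo cells the order was Ptgs1 (878 ± 62.2), Hpgds (422 ± 32.6), Alox5ap (356 ± 19.6), Tbxas1 (134 ± 8.57), Ltc4s (85.6 ± 16.6), Alox5 (32.8 ± 16.7), Lta4h (12.8 ± 1.75), Ptger4 (1.46 ± 0.527), Ptgs2 (1.36 ± 1.78) and Ptges (SD, n = 4). WD CD45lo cells had the same order, from Ptgs1 at 808 ± 133.6 to Ptgs2 at 0.705 ± 0.494 and Ptges last. Neighbours in this order whose libraries overlapped were Ptger4 with Ptgs2 (CD), Hpgds with Alox5ap (WD) and Ptgs2 with Ptges (both diets). COX-1, prostaglandin D synthase and FLAP thus led the members in CD45lo cells of both diets.

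In CD45hi cells the order was less distinct. On CD, Ptgs1 (406 ± 146.5 TPM) and Alox5ap (396 ± 58.9 TPM) overlapped at the top, followed by Hpgds (201 ± 26.1 TPM). From Tbxas1 (104.6 ± 20.1 TPM) down through Ltc4s (46.1 ± 27.1), Ptgs2 (37.6 ± 3.60), Alox5 (37.0 ± 26.1), Ptger4 (21.2 ± 8.76) and Lta4h (13.2 ± 6.66) each neighbour overlapped the next. On WD, Alox5ap (330.03 ± 95.3 TPM), Ptgs1 (264 ± 22.9), Hpgds (237 ± 181.4) and Tbxas1 (130.3 ± 18.0) overlapped in turn, and Alox5 (32.6 ± 40.2) came next without overlap. Ptgs2 stood ninth of 10 in both CD45lo groups and sixth in both CD45hi groups. TPM also depends on the effective length that was estimated per library: for Ptgs1 it was 1527 bases in CD CD45hi 1, and for Hpgds 849 bases in WD CD45hi 1, where Hpgds stood at 445 TPM against 116 and 149 TPM in the other two.

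**Figure D4:**
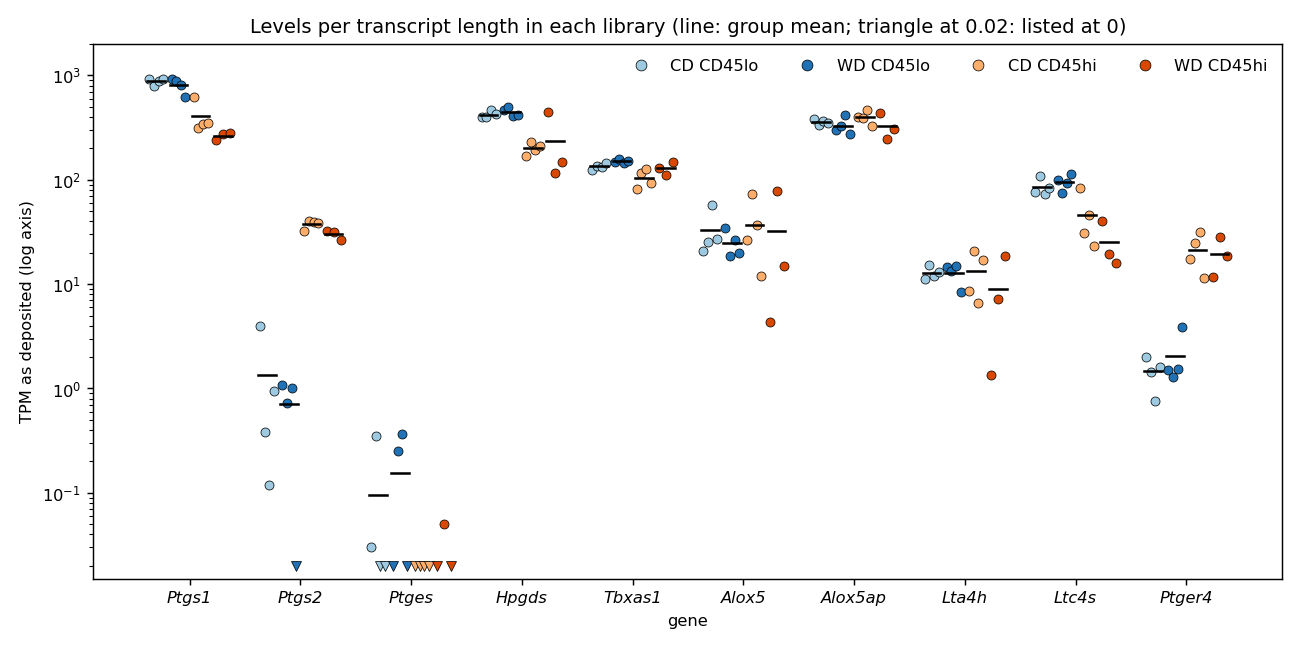
Deposited TPM of the 10 members in each library on a log axis, grouped by diet and CD45 level; triangles mark libraries listed at 0. Ptgs1, Hpgds and Alox5ap top the CD45lo groups, and Ptgs2 and Ptger4 sit near the bottom there and in the middle of the CD45hi groups.

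The genes whose profile over the 15 libraries lay closest to that of a member were found by the root mean square difference of centred log2 cpm. For Ptgs1 they were Arhgef40 (0.175) and Cx3cr1 (0.179), where the median over all genes was 1.03. Cx3cr1 encodes a chemokine receptor of microglia and of some peripheral myeloid cells. For Hpgds they were Srgap2 (0.130) and Dennd4a (0.171). For Ptgs2 they were Emilin2 (0.950) and Alcam (0.960) against a median of 3.60, and for Ptger4 Cd209a (0.597) and Gp49a (0.616) against 2.33. The distances of Ptgs2 and Ptger4 to their nearest genes were thus several times those of Ptgs1 and Hpgds. Their medians over all genes (3.60 and 2.33) were also larger than those of Ptgs1 and Hpgds (1.03 and 0.987). The distances therefore do not compare directly between members. For Tbxas1 the nearest were Srsf6 (0.138) and Pnrc2 (0.175), and for Alox5ap Gm14849 (0.191) and Usp32 (0.206).

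The other genes of the pathway were taken from a list of 53 by role, drawn up with earlier results of these data known. Of these, 35 passed the filter. In each diet 3 of the 35 rose in CD45hi cells and 0 fell, the same 3 genes: Pla2g2d, a secreted phospholipase A2, Dpep2, a dipeptidase that trims cysteinyl leukotrienes, and Cyp4f18, a cytochrome P450 that oxidizes leukotriene B4. Over all genes tested, 5.18% were called in WD (4.01% higher) and 3.98% in CD (3.39% higher). Of the 35, 5 reached 1 cpm in at least 2 CD45hi libraries but not in 2 CD45lo libraries (Cyp4f18, Cysltr2, Ltb4r1, Ptger2 and Ptgir), so they entered the test only where they were high, and the count of 3 with Cyp4f18 in it says nothing about the list. Pla2g2d (ENSMUSG00000041202) measured 26.2, 78.2, 21.8 and 44.7 cpm in CD CD45hi and 1.59, 1.61, 1.78 and 3.86 cpm in CD CD45lo. In WD, Pla2g2d measured 6.49, 31.8 and 37.5 cpm in CD45hi and 0.787, 1.41, 4.01 and 5.08 cpm in CD45lo. The CD gates were far apart for Pla2g2d (log2 fold change 4.27, SE 0.726; edgeR glmTreat FDR = 0.00186), and the WD gates closer (3.16, SE 0.715; FDR = 0.0186). The Pla2g2d call in WD was lost without WD CD45hi 3 (FDR = 0.0549), WD CD45lo 1 (FDR = 0.0586) or WD CD45lo 2 (FDR = 0.0624). Counts of Pla2g2d were fractional in 14 libraries.

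Dpep2 (ENSMUSG00000053687) measured 11.4, 4.80, 2.199 and 15.96 cpm in CD CD45hi and 63.0, 28.6 and 18.6 cpm in WD CD45hi. It lay between 0.113 and 0.471 cpm in CD CD45lo and between 0.0656 and 2.25 cpm in WD CD45lo. The log2 fold change was 4.73 (SE 0.975; edgeR glmTreat FDR = 0.00898) in CD and 5.19 (SE 0.998; FDR = 0.00457) in WD. Dpep2 was also higher in every WD than every CD library of CD45hi cells, without passing the test (2.09, SE 0.885; edgeR glmQLFTest FDR = 0.233). Cyp4f18 (ENSMUSG00000003484) measured 22.5, 6.79, 6.60 and 28.6 cpm in CD CD45hi, 6.21, 30.1 and 7.13 cpm in WD CD45hi, and at most 1.47 cpm in any CD45lo library, of which 1 reached 1 cpm. Its log2 fold change was 4.59 (SE 0.963; edgeR glmTreat FDR = 0.0102) in CD and 4.99 (SE 1.01; FDR = 0.00682) in WD. In WD, Dpep2 was at 4.56 without CD45hi 1 (4.56 also without the pair of libraries apart) and at 6.00 without CD45lo 3, and Cyp4f18 at 3.88 without CD45hi 2, each still called. In CD, Cyp4f18 was at 5.33 without CD45lo 1. Another gene model named Dpep2 and Gm22972 overlap Dpep2 on its own strand. Gm45752 and Dus2 overlap Dpep2 on the other strand, and its counts were fractional in 13 libraries. Zfp961 overlaps Cyp4f18 on the other strand, and the counts of Cyp4f18 were fractional in 1 library.

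No other phospholipase, prostanoid synthase, lipoxygenase or receptor of the 35 was called between the gates. By role, each diet had calls for 1 of the 7 tested in arachidonate release and 1 of 4 in cysteinyl leukotriene metabolism. In export, uptake and breakdown 1 of the 7 was called, Cyp4f18, which entered the test only through CD45hi libraries. Of the 5 other prostanoid synthases, 4 other lipoxygenases, 5 other prostanoid receptors and 3 leukotriene receptors tested, 0 were called. Over all genes tested 5.18% were called in WD and 3.98% in CD. Counts this small do not set the roles apart. Under edgeR glmQLFTest for any change, Pla2g4a, the cytosolic phospholipase A2 (-0.99, FDR = 0.0368), Mgll (-2.27, FDR = 0.0497) and Daglb (-0.89, FDR = 0.0164), which act in the breakdown of diacylglycerol and monoacylglycerol, were lower in WD CD45hi cells, and Ptgir, the prostacyclin receptor (4.10, FDR = 0.0339), was higher in CD CD45hi cells, having passed the filter through CD45hi libraries alone. That test passed 6 of the 35 in WD and 4 in CD, where 9.12% and 8.03% of all genes passed. Genes that entered only through CD45hi libraries were among them, so these counts do not test the list. Between the diets 0 of the 35 were called in either gate by edgeR glmQLFTest. At an unadjusted p under 0.05 there were 5 in CD45hi (17.6% of all genes) and 0 in CD45lo (0.822%). DESeq2 called 2 of the 35 in CD45hi, and 6.88% of all genes. The shares between the diets lay near or below those of all genes.

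**Figure D5:**
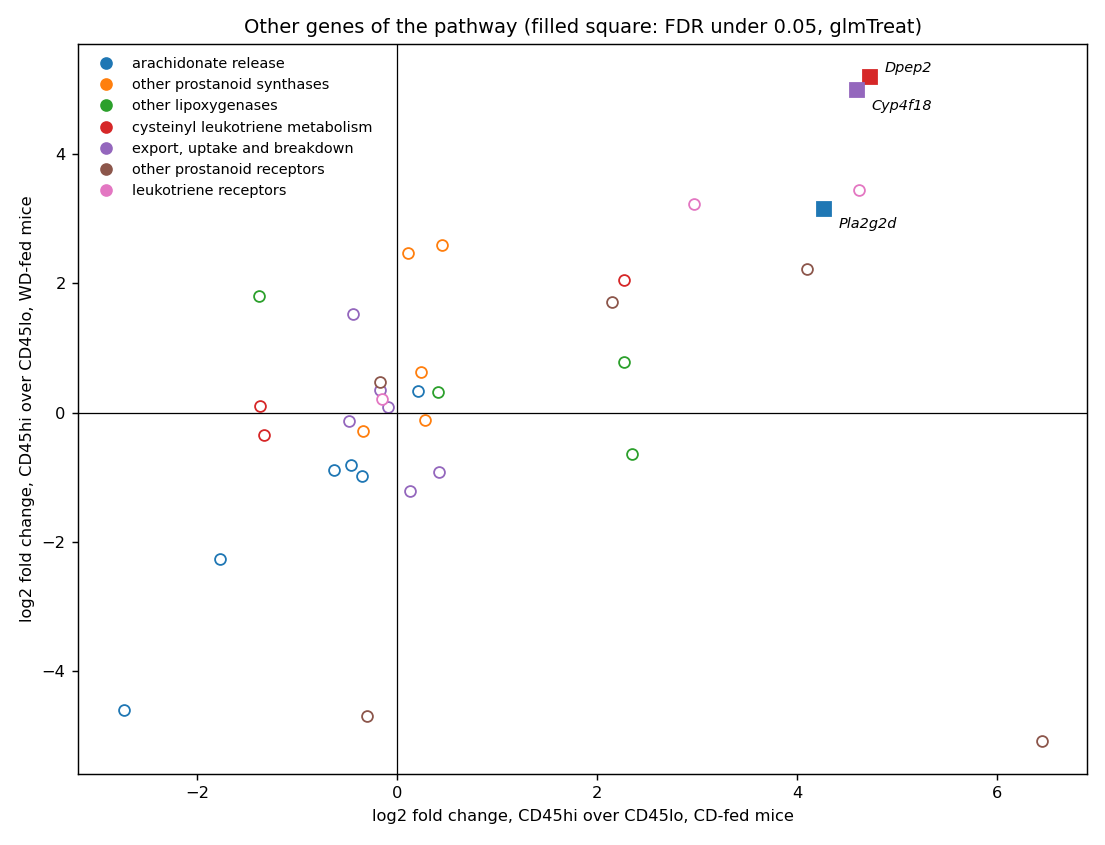
Log2 fold change of CD45hi over CD45lo on CD (horizontal) against WD (vertical) for the 35 tested genes of the wider list, coloured by role. Squares mark Pla2g2d, Dpep2 and Cyp4f18, called on both diets, in the upper right.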

How the data were processed

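CD11b+ brain cells were profiled by poly(A) RNA-seq in 15 libraries of 4 groups (diet by CD45 level). Blood was flushed out by perfusion, olfactory bulb and cerebellum were removed, and the tissue was dissociated by a kit with a warm incubation before sorting. Per the labels and the study's methods, the authors aligned reads to mm10 and deposited, for each gene and library, RSEM (1.2.12) expected counts, TPM and an effective length in bases; the annotation release, the use of strand in counting and the sequencer of each library were not given in the sources used here. Expected counts were rounded, a gene stayed in when 2 or more libraries reached 1 cpm (14967 of 38924), and all libraries were TMM-normalized and fitted together in edgeR 4.0.16 (R 4.3.3) by quasi-likelihood. CD45hi was tested against CD45lo within each diet by glmTreat beyond 1.5-fold, and WD against CD and the interaction by glmQLFTest, with Benjamini-Hochberg FDR over all 14967 genes and a threshold of 0.05. The SE is the log2 fold change divided by the square root of F. Log2 cpm used a prior count of 2. The deposited TPM was used as it stands to compare genes. Levels are limited by counting and library spread, and the floor covers counting error only.

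The members, the wider list, the markers and the rule that names all members and the called genes of the wider list were chosen with earlier results of these data known. Gene positions came from GENCODE M21. DESeq2 1.42.0, limma-voom (limma 3.58.1), other filters and scalings, and each library left out were run as alternatives. The test script was tested on simulated data. CD45hi and CD45lo libraries with the same number showed little correlation of deviations (mean 0.0154 by titles and 0.0246 by files, 7 pairs). These values cannot decide whether they came from the same mouse, because the gates differ in their cells. The main fit did not pair libraries. Replicates differed by more than counting noise in all 21 pairs.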

Additional observations from a re-analysis of the deposited data

Results flagged for a closer look

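Of 38 sets of 4 libraries tested for a single distant library, 6 were marked, and chance marks about 1 in 20; WD CD45hi, with 3 libraries, was not tested. In WD CD45lo, replicate 4 stood apart for Ptgs1 (807 cpm, below the others) and for Ptger4 (7.27 cpm, above), replicate 3 for Alox5ap (152 cpm, above) and replicate 2 for Ptges (0.445 cpm, on 6 reads). In CD CD45lo, replicate 2 stood apart for Ltc4s (29.0 cpm, above) and replicate 4 for Pla2g2d (3.86 cpm, above). No member or gene of the wider list had an interaction of diet and CD45 level that passed the test.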

How the results depend on the processing

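The calls of Ptgs1 in WD and of Ptgs2 and Ptger4 on both diets held under all alternatives run, the highest FDR being 0.0294 (Ptgs1 in WD). Members called in CD went from 2 to 4 under glmQLFTest with a 1.5-fold limit (Ptgs1 and Alox5ap added), where 7.76% of all genes were called. They were 5 under glmQLFTest for any change (8.03%) and 4 under DESeq2 (12%). In WD they went from 3 to 6 under DESeq2 (15.3%). The wider list in WD went from 3 to 6 under glmQLFTest, with the limit (8.92% of all genes) or for any change (9.12%). It also went to 6 under the edgeR 4 quasi-likelihood (6.21%) and to 10 under DESeq2 (15.3%). In CD it went from 3 to 7 under DESeq2 (12%) and 5 under edgeR 4 (5.49%). The calls over all genes rose in each of these settings, from 5.18% in WD and 3.98% in CD. Between diets in CD45hi, leaving out 1 library gave 0 to 1 members. The 1 was Ptgs1 without WD CD45hi 2, where 1.92% of all genes were called. The cause of these changes was not tested. Limma-voom raised Ptgs2 to 6.94 in WD and 6.27 in CD and the replicate blocks to 6.64 (file numbers, WD), 6.17 (file numbers, CD) and 6.17 (title numbers, CD). Directions turned only in comparisons where the member was not called. Under limma-voom Lta4h (CD45hi over CD45lo, WD) was -0.50, Ptger4 (diets, CD45hi) 0.0864 and Alox5 (interaction) -0.30, and under edgeR 4 Ptger4 (diets, CD45hi) was 0.0681. Without the pair of libraries apart on the second component, chosen after seeing the data, the diet values in CD45hi were 0.0619 (Alox5), 0.23 (Lta4h) and 0.0809 (Ptger4), and the Lta4h interaction 0.25.

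With 1 library left out, values ran across 0 for Alox5 (WD, gates) from -0.50 to 1.35, Lta4h (WD, gates) from -0.99 to 0.54 and Tbxas1 (CD, gates) from -0.0781 to 0.14; between diets in CD45hi for Hpgds from -0.23 to 0.0318, Alox5 from -1.59 to 0.26, Ptger4 from -0.40 to 0.27 and Lta4h from -1.51 to 0.0255, and in CD45lo for Ptgs2 from -1.32 to 0.54, Lta4h from -0.11 to 0.12 and Ptger4 from -0.11 to 0.68; and in the interaction for Alox5ap from -0.32 to 0.0761, Alox5 from -1.25 to 0.60, Ptgs2 from -0.78 to 1.08, Lta4h from -1.495 to 0.0417 and Ptger4 from -0.87 to 0.10. With the replicate number as a block (title numbers), Lta4h in WD was -0.67 and the interaction -0.61 for Alox5, -0.59 for Ptgs2 and 0.0201 for Ptger4; with file numbers as the block Lta4h was -0.51 and the Alox5 interaction -0.33. The block by title number lost Dpep2 (FDR = 0.0898 in WD, 0.0722 in CD) and that by file number Pla2g2d in WD (FDR = 0.0658), which was also lost under limma-voom (FDR = 0.102) and when only the groups compared were fitted (FDR = 0.0878). Over all genes the calls were 775 in WD (398 and 353 under the blocks, 1335 and 1365 under glmQLFTest, 2296 under DESeq2) and 595 in CD (417 and 412, 1162 and 1202, 1794), 38 between diets in CD45hi (1 to 287 with 1 library left out, 1 under glmTreat, 69 under a stricter filter, 252 under edgeR 4, 1030 under DESeq2, 0 with only the groups compared, 283 without the pair apart), 0 in CD45lo (4 under DESeq2) and 1 for the interaction (188 under DESeq2). Limma-voom moved the median of all genes by -0.265 in WD and -0.258 in CD. Low counts limit Ptgs2, Ptger4, Pla2g2d, Dpep2 and Cyp4f18 in CD45lo cells and Ptges throughout. Expected counts of Dpep2 per CD45lo library were 2.41 to 8 on CD and 1.01 to 40.8 on WD. Those of Cyp4f18 were 1 to 25 on CD and 2 to 11 on WD.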
